A study of Neurospora crassa with 34 samples.

Results

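The junction calls described here join 1 linkage group (LG, a Neurospora chromosome) or unplaced contig to another. They were taken as every line of the breakpoint lists of 9 Neurospora crassa isolates whose type was interchromosomal, which gave 1344 of 2782 calls (48.3%). The other 1438 calls lie within a chromosome and comprise 1199 deletions, 162 inversions and 77 duplications. Input DNA, the sonicated chromatin kept before immunoprecipitation, was sequenced with 1 library for each isolate, and the isolates therefore have no replicates.

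According to the strain list of the study, the isolate FGSC1614 is mat a and carries In(IL->IR)AR16, an inversion within LG I. FGSC2100 carries T(IV->VI)ALS159, FGSC3670 T(VI->III)OY329, FGSC3635 T(VI->III)OY320, FGSC4641 T(VIL->IR)OY350 and FGSC7294 T(IVR->VL)UK2-32. FGSC3668 carries T(II->IV)OY337 with al-2, and FGSC6869 carries UK3-41, in which a segment of LG VR lies in LG VIL, with inl. These 7 translocation isolates are mat A. FGSC2643 is labelled AR16 as well, and only its label was used here. Each isolate is a single strain and no isolate without a rearrangement was analysed here.

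An insertional translocation moves a segment of 1 chromosome into another. At the point of insertion, the DNA then joins sequences of different chromosomes that are not neighbours in the reference. At the place the segment left, the join lies within 1 chromosome and is not among the interchromosomal calls. The study lists several of the isolates as quasiterminal translocations instead, with a segment moved to or near the end of another chromosome. These also join sequences of different chromosomes. A read pair whose mates map to different chromosomes, or a single read split between them, marks a join between chromosomes. The same signal can arise where a sequence is present in several copies or where the reference and the strain background differ.

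The 1344 calls comprised 1190 from discordant read pairs and 154 from split reads, listed apart. Calls whose ends both lay within 1000 bp were taken as 1 junction, and this gave 704 junctions. The ends of a junction spread by at most 1286 bp, and by over 1000 bp in 3 junctions. A call rested on at least 4 supporting reads, and 497 calls (37.0%) had just 4. At least 10 reads supported 155 calls (11.5%). The lists give no total of reads, so the sequencing depth is unknown and a missing call shows only that a junction was not detected. Both isolates labelled AR16 stood apart from the rest, as described next.

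Isolates differed widely in how many junctions they had. AR16 FGSC2643 had the highest number, 227 junctions from 266 calls, and AR16 FGSC1614 the lowest, 61 junctions from 80 calls. Between them lay UK3-41 with 165 junctions, OY337 with 151, OY329 with 141, UK2-32 with 140, OY320 with 110, ALS159 with 103 and OY350 with 86. Interchromosomal calls made up 37.0% of all calls in AR16 FGSC2643 (95% Wilson interval 33.6% to 40.6%) and 38.1% in AR16 FGSC1614 (31.8% to 44.8%). In the other 7 isolates the share ran from 45.2% in UK2-32 (40.1% to 50.4%) to 59.8% in OY337 (54.0% to 65.4%). These intervals cover counting error only.

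Most junctions were called once. Of the 704 junctions, 492 (69.9%) were found in 1 isolate, 97 in 2, 52 in 3, 23 in 4, 14 in 5, 9 in 6, 11 in 7, 5 in 8 and 1 in all 9. Because recurrent junctions have several calls each, 778 of the 1344 calls (57.9%) belonged to a junction of at least 2 isolates. By the same rule 59.2% of calls of all types and 60.4% of the intrachromosomal calls were found in at least 2 isolates. The share among interchromosomal calls is thus close to this background.

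Within isolates, interchromosomal calls were found again in another isolate less often than intrachromosomal ones. The share averaged 59.7% for interchromosomal and 69.0% for intrachromosomal calls, a difference of -9.25 percentage points (SD 9.11, n = 9 isolates), and it was lower in 8 of 9 isolates (exact sign-flip permutation test, two-sided, p = 0.0195, adjusted p = 0.0391 over 4 tests). OY350 went the other way, with 73.9% against 62.9%. Each shared junction counts in every isolate that has it, so the 9 differences are not independent. The test treats them as independent, and its p is therefore approximate. The call was lost when any 1 of ALS159, AR16 FGSC1614, AR16 FGSC2643, OY320, OY329, OY337 or UK2-32 was left out. Without AR16 FGSC2643 the difference was -4.52 percentage points, and the exact adjusted p was 0.336. Without both AR16 isolates it was -2.32 percentage points (exact adjusted p = 0.703, n = 7), and with at least 10 supporting reads per call it was -24.6 percentage points over all 9 (exact adjusted p = 0.0156).

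Interchromosomal calls also had fewer supporting read pairs. The median per isolate was 5 read pairs in 7 isolates, 6 in AR16 FGSC2643 and 7 in AR16 FGSC1614, against 6 to 12 for the intrachromosomal calls of the same isolates. The difference averaged -2.89 read pairs (SD 1.17, n = 9), in the same direction in 9 of 9 isolates (exact sign-flip permutation test, two-sided, p = 0.00391, adjusted p = 0.0156), and no smaller p is possible with 9 isolates. With at least 10 supporting reads per call the difference was -1.83 read pairs (exact adjusted p = 0.0469). Without both AR16 isolates it was -2.57 read pairs, and the exact adjusted p was 0.0625 with p = 0.0156, the smallest that 7 isolates allow.

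**Figure D1:**
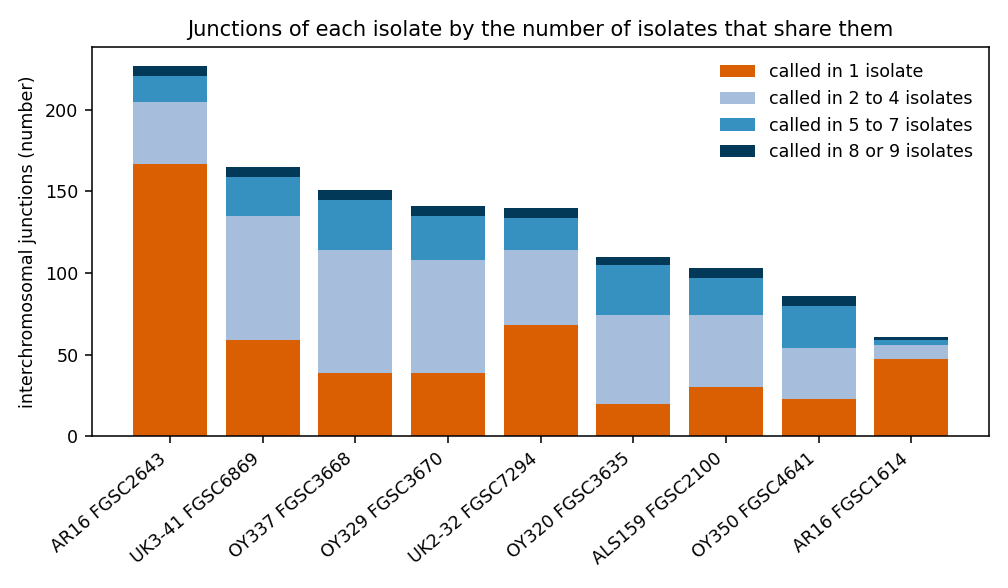
Number of interchromosomal junctions (vertical axis) in each of the 9 isolates, stacked by the number of isolates in which a junction was called. AR16 FGSC2643 has 167 junctions of its own among 227, and AR16 FGSC1614 has 47 among 61, whereas OY320 has 20 among 110.

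The isolates fell apart by how much they shared. Junctions called in no other isolate made up 18.2% of the junctions of OY320 (95% Wilson interval 12.1% to 26.4%), 25.8% in OY337, 26.7% in OY350, 27.7% in OY329, 29.1% in ALS159 and 35.8% in UK3-41. The share was 48.6% in UK2-32 (40.4% to 56.8%), 73.6% in AR16 FGSC2643 (67.5% to 78.9%) and 77.0% in AR16 FGSC1614 (65.1% to 85.8%). OY337 and OY329 had 64 junctions in common, which is 42.4% of those of OY337 and 45.4% of those of OY329. OY320 and OY337 had 59 in common, 53.6% and 39.1% of their junctions.

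AR16 FGSC1614 stood apart from all others. It shared 2 to 8 junctions with each other isolate, between 3.28% and 13.1% of its 61. The 2 isolates labelled AR16 had 7 junctions in common, which is 11.5% of those of FGSC1614 and 3.08% of those of FGSC2643. AR16 FGSC2643 shared 19 to 29 junctions with each of the 7 translocation isolates.

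**Figure D2:**
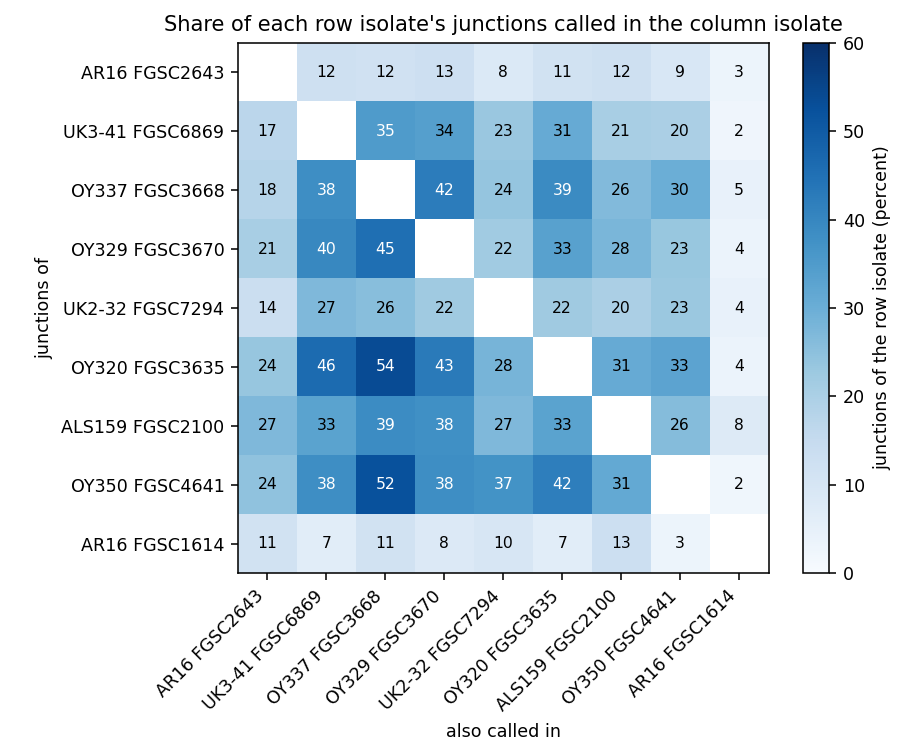
Percent of the junctions of each isolate (rows) that were also called in each other isolate (columns). The row and the column of AR16 FGSC1614 are pale throughout, and the darkest cell is the 53.6% of OY320 junctions that OY337 has too.

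The only junction of all 9 isolates joined LG V at 7254 to position 92071 of the unplaced contig Supercontig_12.8. The left end of LG V carries the ribosomal DNA repeats in Neurospora. Read pairs supporting it numbered 168 in OY350, 143 in ALS159, 142 in OY337, 138 in UK2-32, 130 in AR16 FGSC2643, 100 in UK3-41, 93 in OY320, 88 in OY329 and 31 in AR16 FGSC1614. AR16 FGSC1614 was thus lowest, and no split-read call gave the junction in any isolate. Its LG V ends lay within 14 bp and its contig ends within 135 bp of each other. All 9 calls had the same orientation, with the LG V sequence below the point running into the contig sequence above it. Outside this junction, the read pairs of a junction in an isolate reached at most 43, and those of a single isolate-specific call at most 29.

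A further 5 junctions were called in 8 isolates (88.9%). LG II at 3314585 was joined to LG IV at 5230483, LG I at 9290692 to LG IV at 3747176, LG II at 3929421 to LG VII at 1063805, and LG III at 689736 to LG IV at 1890002. These were called in every isolate other than AR16 FGSC1614. LG IV at 2727210 was joined to LG V at 496075 in every isolate other than OY320, and there AR16 FGSC1614 was the highest, with 16 read pairs against 4 to 8 in the other 7. The junction of LG II with LG VII had 18 read pairs in OY329, 15 in OY337, 12 in UK3-41, 9 in UK2-32, 8 in OY320, 6 in OY350, 5 in ALS159 and 4 in AR16 FGSC2643. All of its calls had 1 orientation and its ends lay within 15 bp and 24 bp.

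The junction of LG II at 3314585 with LG IV at 5230483 had the most split reads of the 10 most recurrent junctions. Split reads numbered 12 in OY329, 10 in UK3-41, 9 in AR16 FGSC2643, 7 in ALS159, 5 in UK2-32 and 4 in OY350, and OY320 and OY337 had read pairs only. Over both kinds of evidence, 12 of its calls had 1 orientation and 4 the opposite one.

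Of the 11 junctions of 7 isolates, 4 stood among the 10 most recurrent. LG I at 2397890 was joined to LG II at 4115978 with 6 to 13 read pairs per isolate, LG IV at 5234486 to LG VI at 1189672 with 4 to 19, LG I at 2279274 to LG VI at 1187581 with 5 to 11 and LG I at 5760136 to LG II at 3622438 with 4 to 8. None of these 4 was called in AR16 FGSC1614. With at least 10 supporting reads per call, the junction of LG V with Supercontig_12.8 stayed in all 9 isolates. LG II to LG VII was left in 3, LG II to LG IV and LG I at 2279274 to LG VI in 2. LG I at 9290692 to LG IV, LG IV to LG V and LG IV to LG VI were left in 1. The junctions of LG III with LG IV, of LG I at 2397890 with LG II and of LG I at 5760136 with LG II had no call left.

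Recurrent junctions were precise in position and thin in support. In the 40 junctions of at least 5 isolates, the positions of an end spread by a median of 37 bp. As a median over calls, shared and isolate-specific read-pair calls both had 5 read pairs. Taken per isolate, the median averaged 5.22 read pairs for shared and 4.72 for isolate-specific junctions, a difference of 0.50 (SD 0.71, n = 9), higher in 6 isolates and lower in 1 (exact sign-flip permutation test, two-sided, p = 0.125, adjusted p = 0.167). The isolate below was AR16 FGSC2643, with 5 against 6 read pairs.

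Split reads supported few of the read-pair calls. A split-read call of the same isolate lay within 1000 bp at both ends for 36 of 692 shared read-pair calls (5.20%) and 49 of 498 isolate-specific ones (9.84%). Over isolates the share averaged 4.43% for shared and 7.74% for specific calls, a difference of -3.31 percentage points (SD 6.66, n = 9), lower in 5 of 9 isolates (exact sign-flip permutation test, two-sided, p = 0.176, adjusted p = 0.176). In the other direction, 69 of the 154 split-read calls (44.8%) had a read-pair call at the same place. By junction, 53 of 704 had both kinds of evidence, 604 read pairs only and 47 split reads only. The split-read-only junctions reached at most 5 isolates.

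The ends of the junctions were counted in bins. Cut into bins of 10 kb up to the highest called position, LG I to VII had 4049 bins, and 675 of them (16.7%) held an end. No share for ends placed at random was computed, and the number of ends alone limits how many bins can hold one. Counting the unplaced contigs too, 372 of 710 bins held ends of 1 isolate, 50 held ends of at least 7 isolates, 24 of them of 8 and 4 of them of all 9. On LG I to VII the bins of at least 7 isolates were 1.16% of all bins. At least 1 end of 196 junctions (27.8%) and of 88 of the 492 isolate-specific junctions (17.9%) lay in a bin of at least 7 isolates, and 70 junctions had both ends in such bins. The bins were chosen for their isolates, so these counts are a description.

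The bin on LG II from 4110001 to 4120000 held ends of all 9 isolates, with 10 junctions and 45 ends. These lay between 4111334 and 4116145 and led to LG I, III, IV, V and VII. Its most frequent junction was called in 7 isolates, and 3 of the 10 were called in 1 isolate. The LG V bin from 490001 to 500000 also held all 9 isolates, but with 2 junctions, both to LG IV, whose ends lay within 151 bp. The bin at the left end of LG V (1 to 10000) and the one on Supercontig_12.8 from 90001 to 100000 held the 2 ends of the junction found in all 9 isolates.

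Among the bins of 8 isolates, the one on LG III from 1730001 to 1740000 had the most junctions, 16, with 45 ends leading to each of the other 6 linkage groups. The LG II bin from 3690001 to 3700000 and the LG VII bin from 140001 to 150000 had 14 junctions each. The LG VI bin from 1180001 to 1190000 had 13, and the LG I bins from 2280001 to 2290000 and from 9740001 to 9750000 had 10 each. AR16 FGSC1614 had no end in any of these 6 bins, and it was the isolate missing from 21 of the 24 bins of 8 isolates. Without AR16 FGSC1614, 25 bins held ends of all 8 isolates left, and without both AR16 isolates 36 held ends of all 7 left.

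All 21 pairs of linkage groups had junctions. LG I with LG II had the most, 58, followed by LG I with LG VII (50), with LG VI (45) and with LG IV (44). LG II with LG VI had the fewest, 15. Against the product of the lengths of the paired groups, LG II with LG VII was the most frequent, with 41 junctions or 6.37% of the 644 between linkage groups where the lengths give 2.76%. LG I with LG V was the least frequent, with 31 junctions or 4.81% where the lengths give 9.14%. Per Mb of highest called position, LG VII had 45.6 junctions and LG II 43.8, and LG V had 23.6.

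The pairs differed in how much of them recurred. Of the 23 junctions of LG III with LG V, 13 (56.5%) were called in at least 2 isolates, and of the 27 of LG IV with LG VII also 13 (48.1%). Of the 22 junctions of LG III with LG VI, the pair that the genotypes of OY329 and OY320 name, 2 (9.09%) recurred and none was called in more than 3 isolates. The unplaced contigs held an end of 60 junctions and 97 calls.

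**Figure D3:**
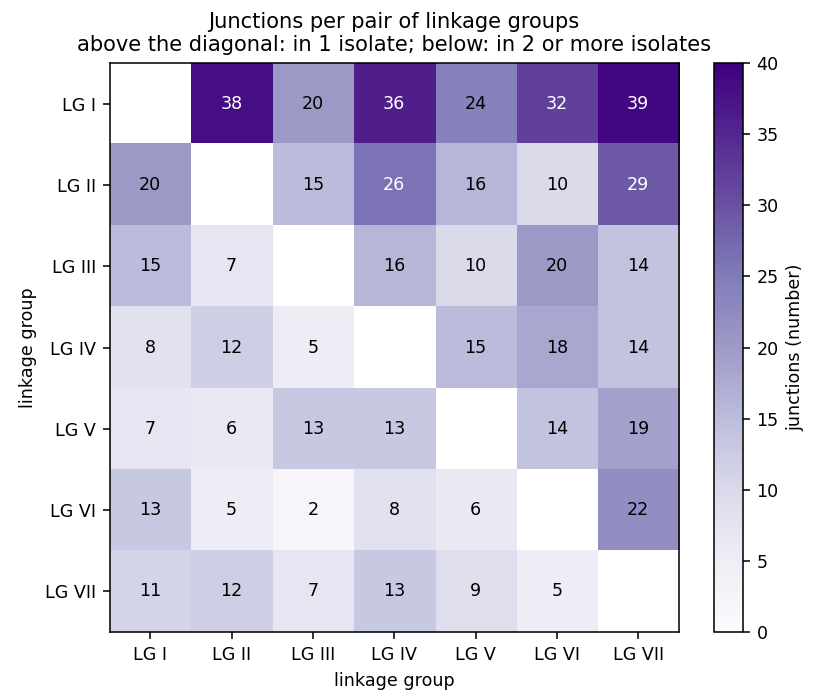
Number of junctions for each pair of the 7 linkage groups, with isolate-specific junctions above the diagonal and junctions of at least 2 isolates below it. LG I with LG VII has 39 isolate-specific and 11 recurrent junctions, and LG III with LG VI has 20 and 2.

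In each of the 7 translocation isolates the genotype names a pair of linkage groups, and isolate-specific junctions of that pair were looked up. Ranks by reads add all calls of a junction, so 2 calls of opposite orientation count together. In ALS159, 1 specific junction joined LG IV to LG VI, at 1479855 and 4144844, and with 10 read pairs and 4 split reads it was the best supported of the 30 specific junctions. In OY320, 1 specific junction joined LG III at 5274308 to LG VI at 3715971. It had 21 read pairs in 2 calls of opposite orientation and 4 split reads, the most of the 20 specific junctions. One of its own calls lay at 5274318, and no breakpoint call had a higher LG III position.

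In OY329, the 2 specific junctions between LG III and LG VI were first and second by reads among its 39. LG III at 1737665 led to LG VI at 3451743 with 13 read pairs and 7 split reads, and LG III at 1737672 led to LG VI at 4200442 with 7 read pairs and 4 split reads. Both LG III ends lie in the bin from 1730001 to 1740000 that had the most junctions of the bins of 8 isolates. They were 65 bp and 72 bp from LG III at 1737600, the end of a recurrent junction to LG V at 2619553. That junction had 9 read pairs in OY337 and in UK3-41, 8 in OY329, 5 in OY320 and in OY350 and 4 in ALS159 and in UK2-32, with no call in either AR16 isolate.

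In UK2-32, which had 4 specific junctions between LG IV and LG V, the pair with most reads shared a point on LG V. LG IV at 3262408 was joined to LG V at 3202274 by 12 read pairs, and LG IV at 5949382 to LG V at 3202219 by 11 read pairs, with no split reads for either. The LG V ends lay 55 bp apart, and the orientations faced inward, so that the calls join both edges of the LG IV stretch from 3262408 to 5949382 (2686974 bp) to the LG V point. By reads the first of them ranked 11 among the 68 specific junctions of the isolate. Neither was called in another isolate.

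In UK3-41, the second best supported of the 59 specific junctions linked position 5776548 of LG V and position 105931 of LG VI, with 15 read pairs and 7 split reads. The other 3 specific junctions of LG V with LG VI in this isolate had 5 to 8 read pairs each and no split reads. In OY350, the point 457644 on LG VI was joined to LG I at 9796099, with 12 read pairs and 5 split reads, and the point 493945 on LG VI to LG I at 638, with 14 read pairs. These were its 2 specific junctions of that pair and the first and second by reads among 23. Both LG I ends are extreme: 9796099 is the highest LG I position of any breakpoint call and 638 the lowest of any interchromosomal junction. The genotype names the right arm of LG I, whereas 638 lies at the left end. The study's own breakpoint list gives no detected breakpoint for OY350.

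In OY337, no specific junction between LG II and LG IV had both kinds of evidence. Its 3 specific junctions of this pair had 4, 5 and 7 read pairs, and the best supported joined LG II at 3912584 to LG IV at 1897597. With ends within 5000 bp taken as 1 junction, that one was found in 4 isolates. The best supported specific junction of OY337 joined LG V at 1759508 to LG VI at 4216122, the highest called position of LG VI, by 10 split reads and no read pairs. For OY337 too, the study's own breakpoint list gives no detected breakpoint.

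Genotype pairs were not empty in the other isolates. The number of isolate-specific junctions of LG IV with LG VI ran from 0 to 8 in the 8 isolates other than ALS159, and that of LG I with LG VI from 0 to 18 in those other than OY350. Specific junctions with both kinds of evidence were rarer. For LG IV with LG VI and for LG V with LG VI there was none in the other 8 isolates, and for LG I with LG VI there were 2. For LG III with LG VI there was 1 beyond those of OY320 and OY329, in AR16 FGSC1614, joining LG III at 673028 to LG VI at 3661560 with 15 reads. For LG II with LG IV there was 1, in an isolate other than OY337, and for LG IV with LG V there was none in any isolate.

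**Figure D4:**
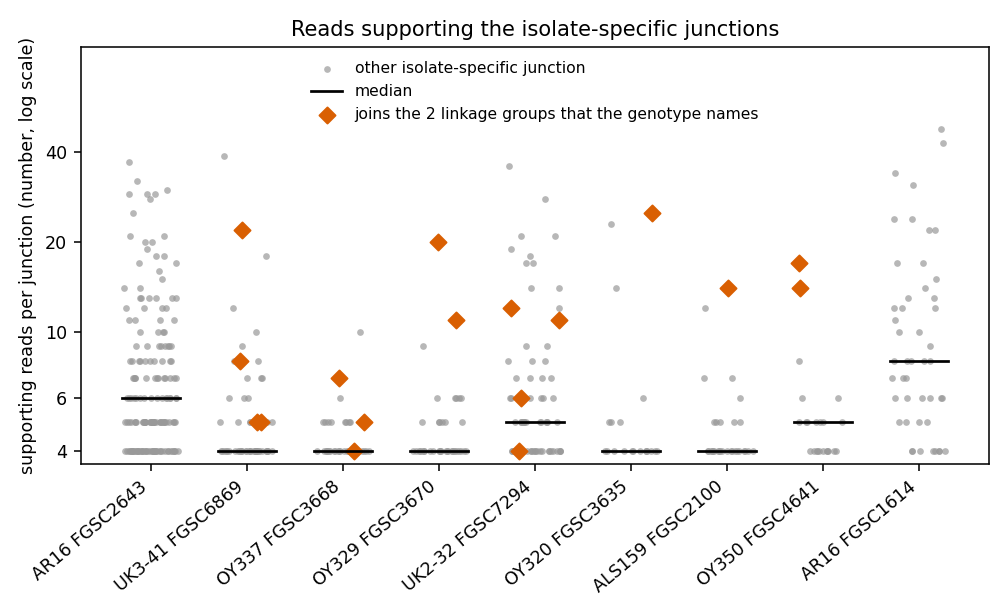
Supporting reads of each isolate-specific junction (points, log scale) in each isolate, read pairs and split reads of all its calls added. The median is a line, and junctions of the linkage groups that the genotype names are diamonds. The diamonds at 25 reads in OY320, 20 in OY329, 17 in OY350 and 14 in ALS159 are the highest points of their isolates, while the highest diamond of OY337 is at 7.

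Outside the genotype pairs, specific junctions of at least 10 reads were most numerous in both AR16 isolates and UK2-32. In AR16 FGSC1614, LG I at 2138160 was joined to LG II at 3982140 by 34 read pairs and 14 split reads, and LG III at 3139156 to LG VII at 567164 by 34 read pairs. There, 43 read pairs linked LG III at 2408772 and LG VI at 2244644. Each of these totals adds 2 read-pair calls of opposite orientation: 13 and 21, 21 and 13, and 22 and 21 read pairs in the order given. In AR16 FGSC2643, LG I at 618768 was joined to LG IV at 2978331 by 25 read pairs and 12 split reads. LG IV at 5938402 was joined to LG VII at 4228386 by 28 and 4, and LG I at 6748336 to LG VII at 2122622 by 18 and 12. The read pairs of LG I at 618768 and of LG IV at 5938402 also add 2 opposite calls (14 and 11, 17 and 11). The median number of reads over the specific junctions was 8 in AR16 FGSC1614, 6 in AR16 FGSC2643, 5 in UK2-32 and OY350 and 4 in the other 5 isolates. At least 10 reads were found for 20 of 47 specific junctions in AR16 FGSC1614, 39 of 167 in AR16 FGSC2643 and 14 of 68 in UK2-32, and for 1 to 5 in each other isolate. These medians and counts include the genotype pairs. In OY329 and OY350, with 2 each, only junctions of the genotype pair reached 10 reads.

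Well-supported specific junctions of other isolates included LG I at 374752 with LG II at 649459 in UK2-32 (23 read pairs and 13 split reads). UK2-32 also had LG I at 2903062 joined to LG III at 1897620 by 19 read pairs and 9 split reads, and LG I at 3427723 to LG II at 518051 by 16 and 5. In UK3-41, LG I at 6087182 was joined to LG V at 2876630 by 34 read pairs and 5 split reads, and LG I at 8267154 to LG V at 4426549 by 18 read pairs. OY320 had LG II at 572644 with LG VI at 684040 (23 read pairs) and LG I at 5542821 with LG IV at 5974723 (14 read pairs). ALS159 had LG I at 529612 with LG II at 3824347 (12 read pairs) and LG I at 3018850 with LG II at 3886904 (7 split reads). The third of OY329 joined LG VI at 1187910 to LG VII at 146916 by 9 read pairs, both ends in bins of 8 isolates. The third of OY337, LG I at 7734112 with LG II at 2231527, had 5 read pairs and that of OY350, LG II at 4251032 with LG IV at 4295468, had 6. Some of these totals also add 2 read-pair calls of opposite orientation. They are those of LG I at 374752 (7 and 16), 2903062 (14 and 5), 6087182 (20 and 14), 5542821 (5 and 9) and 529612 (4 and 8). The total of LG II at 572644 adds calls of 5 and 18 read pairs that differ in orientation at 1 end.

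Some of these junctions came in pairs that shared a site. The strand pair of a call tells on which side of each end the supporting reads lie. A pair of calls was counted when 1 isolate had both edges of a segment, each facing into it, joined to 1 site on another linkage group, with the site ends within 1000 bp and on opposite strands. This rule was chosen after values had been seen, so its counts are given with no test. There were 108 such pairs, 48 of them made of isolate-specific junctions and 60 with at least 1 junction that another isolate shared.

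In most specific pairs the site was narrow. In 43 of the 48 specific pairs (89.6%) the site ends lay within 20 bp of each other, from a gap of 9 bp to an overlap of 13 bp, and in 33 of the 43 they overlapped. Of the 60 pairs with a shared junction, 10 (16.7%) had a site this narrow, and 34 had a gap of 90 to 140 bp. A gap in that range was found in 1 specific pair. Pairs were counted in each isolate, so a shared place can count several times, which a specific one cannot. The segment of LG I from 9290575 to 9290693 at LG IV, for example, counts in 5 isolates. The shares of narrow sites therefore rest on unlike units. The 43 narrow specific pairs framed segments from 53 bp to 748699 bp with a median of 612 bp: 25 were under 1000 bp, 10 from 1000 to 10000 bp and 8 longer. The segment was inverted at its site in 23 and not in 20.

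**Figure D5:**
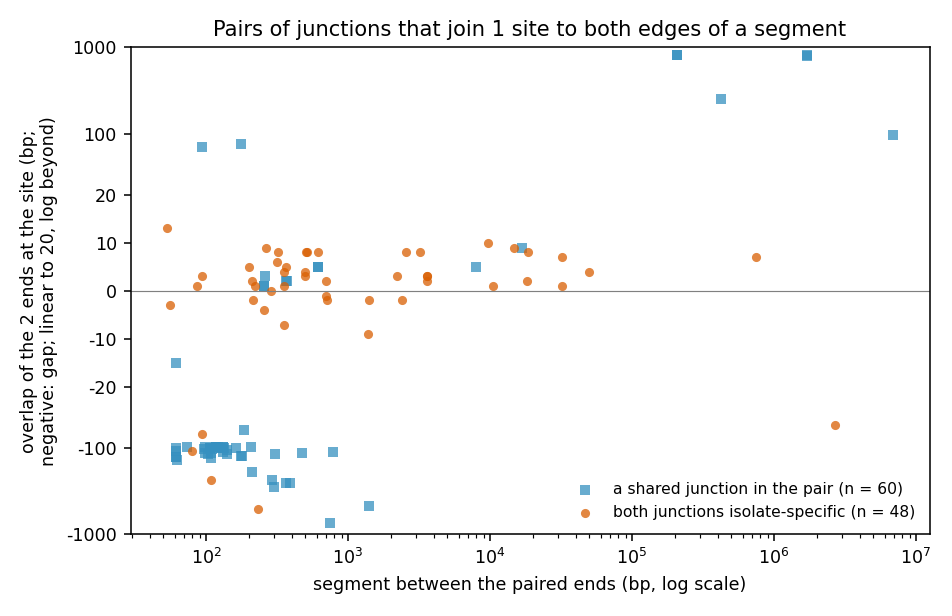
Each point is a pair of calls of 1 isolate that joins 1 site to both edges of a segment, with the segment length (horizontal, log scale) and the overlap of the site ends (vertical, in bp, negative for a gap, linear up to 20 bp and log beyond). Pairs of isolate-specific junctions lie mostly between a gap of 9 bp and an overlap of 13 bp, and pairs with a shared junction mostly at gaps of 90 to 140 bp. Points are per isolate, so a shared place can give several points.

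Of the narrow specific pairs, 22 were in AR16 FGSC2643, 10 in AR16 FGSC1614, 8 in UK2-32, 2 in UK3-41 and 1 in OY329, and none in ALS159, OY320, OY337 or OY350. They took up 33 of the 167 specific junctions of AR16 FGSC2643 (19.8%), 11 of the 47 of AR16 FGSC1614 (23.4%) and 12 of the 68 of UK2-32 (17.6%). Without both AR16 isolates, 11 of 14 specific pairs (78.6%) and 8 of 53 pairs with a shared junction (15.1%) were narrow. In UK2-32, 7 of the 8 sites were on LG I. The pair of OY329 was that of LG VI from 3451743 to 4200442 at LG III, with a site overlap of 7 bp. It was the longest narrow one, and the LG IV stretch of UK2-32 at LG V, with its gap of 55 bp, was the only longer specific pair. In both, the segment is on the linkage group that the genotype names as the donor and the site on the one it names as the recipient, but genotypes name only linkage groups or arms. The study's own breakpoint list, also called from input DNA, holds both OY329 junctions at these positions. It also holds the junctions of ALS159, OY320 and UK3-41 that joined the genotype's linkage groups with both kinds of evidence. For UK2-32 it gives no detected breakpoint. For UK2-32 the recipient arm is VL, and the study lists a quasiterminal translocation, not an insertion. Genetic mapping put its LG V point at or near the ribosomal DNA at the left end, while the called site lies 3202219 bp from the start of LG V.

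Some segments were found at several sites. In AR16 FGSC2643, LG VI from 501863 to 505474 (3611 bp) was joined at its edges to LG I at 5848303, at 7806545 and at 8439436, inverted at the first. Site overlaps were 3, 3 and 2 bp, and each edge had 5 to 14 read pairs. Also in AR16 FGSC2643, LG VII from 1117480 to 1149571 (32091 bp) was joined to LG I at 5504656 and to LG VI at 231321. A lone junction of 7 read pairs led from its lower edge to LG VI at 989553.

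A few segments were joined to different sites in different isolates. LG III from 1897620 to 1897972 (352 bp) was joined to LG I at 2903062 in UK2-32 and to LG VI at 506729 in AR16 FGSC2643. LG II from 4061885 to 4062590 (705 bp) was joined to LG I at 4395655 in UK2-32 and to LG VII at 496600 in AR16 FGSC2643. LG I from 6087182 to 6087499 (317 bp) was joined to LG V at 2876636 in UK3-41, and nearly the same segment, from 6087178 to 6087500, to LG VII at 3862092 in AR16 FGSC2643. LG V from 2209683 to 2210036 (353 bp) was joined to LG VII at 2153108 in AR16 FGSC2643, and nearly the same segment, starting at 2209673 and 2209666, to LG VII at 3518902 in UK2-32 and UK3-41. The segments agree within 20 bp at each edge, and the sites lie on another linkage group or over 1 Mb away.

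Narrow pairs at the same site in 2 isolates were rare. LG V from 827098 to 827710 was joined inverted to LG I at 2128622 in AR16 FGSC1614 and UK2-32, with 65 read pairs in all and a site overlap of 5 bp in both. It is 1 of the 6 junctions these isolates have in common. LG I from 1655331 to 1655586 was joined to LG VII at 3396247 in UK2-32 and UK3-41, with 17 read pairs and an overlap of 1 bp in both.

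The orientation of the calls was even. The 4 strand combinations took between 318 calls (23.7%) and 356 calls (26.5%) of the 1344. Both opposite orientations were called at 37 of the 212 shared junctions (17.5%) and at 30 of the 492 isolate-specific ones (6.10%). Of the latter, 13 were in AR16 FGSC2643, 9 in AR16 FGSC1614, 4 in UK2-32, 2 in OY320 and 1 each in ALS159 and UK3-41. Calls of a shared junction were pooled over isolates, so opposite calls of different isolates count. The 212 shared junctions had 778 calls and the 492 specific ones 566, so the shares are not comparable.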

How the data were processed

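Input DNA of the 9 isolates was sequenced as read pairs. Per the methods, the authors aligned the reads with bwa-mem to a corrected assembly and called breakpoints with LUMPY 0.2.9. The deposited lists hold calls from read pairs and calls from split reads apart. The score of each call is the evidence score as deposited by the authors, where a smaller value is stronger evidence. Supporting reads and most likely positions were read from the same lines. The methods state a call weight of 5 and a score limit of 0.05, yet the lists hold interchromosomal calls of 4 reads, and 18 at or above that score, of which 16 are infinite. All were kept, and 3 lines with fewer than 15 columns were not used. Reads from repeats can be placed at a wrong copy and so add calls.

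Calls of all isolates and both kinds of evidence were joined by single linkage when both ends lay within 1000 bp, without regard to strand. The 4 comparisons used an exact sign-flip permutation test over isolates with Benjamini-Hochberg adjustment and a threshold of 0.05. Where a comparison uses recurrence across isolates, the isolates are not independent, which the test does not take into account. Python 3.11.15, pandas 2.3.3 and scipy 1.17.1 were used, and grouping and test were checked on simulated data. The simulated junctions lay far apart and the simulated differences were independent. The check therefore does not cover crowded ends or isolates that share junctions. The length of a linkage group is its highest called position. No annotation of the corrected assembly was used here, so genes at the ends are not given. Distances to genes with H3K27me2/3 were not computed because the table used here holds no positions.

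Named were the 10 junctions of most isolates, up to 3 isolate-specific junctions per isolate with most reads, specific junctions of the genotype's linkage groups with both kinds of evidence, and the 10 bins of most isolates. Others, such as the LG IV to LG V pair of UK2-32 and the segments, were chosen after their values were seen. The members and lists were chosen with earlier results of these data known. Alternatives were other distances, complete linkage, matched strands, minimum reads, the score limit, LG I to VII only, either kind of evidence alone, other bins, each isolate left out and, added after seeing the data, both AR16 isolates left out.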

Additional observations from a re-analysis of the deposited data

Results flagged for a closer look

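AR16 FGSC1614 was flagged for the highest median number of read pairs per interchromosomal call, 7 against at most 6. It was also the isolate with the fewest junctions and the fewest shared ones, and its median for intrachromosomal calls, 12, was the highest of the 9. AR16 FGSC2643 was flagged for the lowest difference between shared and isolate-specific junctions, with -1 read pair where the other 8 lay between 0 and 1. Both are small steps among medians with many ties. A total of 12 measures were looked at in this way, each over 9 isolates. Chance flags about 1 in 20 such groups, a rate that need not hold for tied medians.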

How the results depend on the processing

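The number of junctions (704) fell to 107 with at least 10 reads per call and to 100 with split reads alone, and ran from 537 to 685 with an isolate left out. The share of junctions in at least 2 isolates (30.1%) was 26.7% with ends within 100 bp, 24.6% with at least 5 reads and 14.02% with at least 10, and ran from 27.5% to 35.8% with an isolate left out, highest without AR16 FGSC2643, and it was 38.6% without both AR16 isolates. The lower recurrence of interchromosomal calls had an exact adjusted p of 0.0547 at -9.00 percentage points with ends within 5000 bp, and ran from -12.4 to -4.52 percentage points with an isolate left out (adjusted p 0.0156 to 0.336). It was -24.6 percentage points (adjusted p 0.0156) with at least 10 reads and -2.32 (0.703) without both AR16 isolates. The lower number of read pairs passed the threshold in 16 alternatives, with -3.13 to -2.63 read pairs when an isolate was left out. With at least 10 reads the difference was -1.83 (adjusted p 0.0469). Without both AR16 isolates it was -2.57 and did not pass (exact adjusted p 0.0625). There the exact sign-flip p was 0.0156, the smallest that 7 isolates allow, and the adjusted p depended on the other tests too. The other 2 comparisons passed the threshold in none of these alternatives. Bins with ends of all isolates numbered 4, 8 with bins of 50 kb and 2 with at least 5 or at least 10 reads, ran from 4 to 25 with an isolate left out, and numbered 36 without both AR16 isolates. The number of isolates of a named junction stayed within 1.5 times of its value in 329 of 338 comparisons with other settings. Settings that left a named junction without any call are not among the 338. Most named junctions were those of 1 isolate, whose number cannot fall, so this count says little about stability. The causes were not tested. Narrow specific pairs numbered 42 within 10 bp, 43 within 50 bp and 39 with segments of at least 200 bp, settings added after seeing the data, as was the omission of both AR16 isolates. No paired analysis was possible because libraries carry no replicate numbers to pair them by, with 1 library per isolate. The 4 tests pair 2 kinds of call within an isolate.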

Other observations

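Ends of junctions near the tips of linkage groups were counted, since the study is about subtelomeric chromatin. Within 100 kb of position 1 or of the highest called position lay 58 of 894 ends of isolate-specific junctions (6.49%) and 28 of 394 ends of recurrent ones (7.11%), where these stretches are 3.46% of the called length. Of the 894 ends of isolate-specific junctions, 282 (31.5%) lay within 1000 bp of an end that another isolate had, in a junction to another place. The share was highest in OY350 (60.0% of 40 ends) and lowest in AR16 FGSC1614 (20.7% of 92 ends).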
